A study of Mus musculus with 6 samples.

Results

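The potassium channel genes described here are 40 genes for channels of neurons, chosen by name from the 55421 genes of the deposited table. They comprise the pore-forming and auxiliary subunits of voltage-gated channels, inward rectifiers, two-pore channels and channels opened by calcium or sodium, in 13 families. All 40 were found, each as 1 row, and all 40 passed the filter on low counts that left 17069 genes for testing. Hippocampal RNA came from 3 male C57BL/6N mice injected subcutaneously with substance P (SP; 10 µM, 100 µL) for 14 days and from 3 given saline in the same volume (vehicle). All 6 mice were wild-type, and the study used mice aged 8 to 10 weeks. Each mouse gave 1 stranded mRNA library of whole hippocampal tissue, and the number given to the mice, from 1 to 3 in both groups, is called a batch in the labels. In such bulk RNA, fewer cells of a type and less RNA per cell cannot be told apart.

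Potassium channels let potassium leave the cell and so return the membrane to rest after an action potential. Voltage-gated (Kv) channels of different families set the width of the spike, the delay to the first spike and the size of signals in dendrites. Inward rectifiers coupled to G proteins carry slow inhibition, two-pore channels carry the resting leak, and channels opened by calcium or sodium end or follow bursts. M channels, built from Kv7 subunits, can be closed by receptors that signal through Gq, and the neurokinin 1 receptor for SP is a receptor of this kind.

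The libraries held 22349964 to 27605935 estimated counts, and the lowest count of any member in any library was 25. Values are given as CPM, which scales the counts to a common library size after TMM normalization, in the order of replicates 1, 2 and 3. The 5 CA1, 5 CA3 and 6 dentate granule markers were detected in each library, as the labelled tissue requires. P-values measure the spread between these mice only. Library SP 2 stood apart from the others in several marker lists, which cover cells and regions inside and around the hippocampus. Its 6 dentate granule markers summed to 459 CPM, where the vehicle libraries had 308 to 329, SP 1 393 and SP 3 287. The 9 markers of neocortex and subplate summed to 202 to 225 CPM in the vehicle libraries and to 176, 156 and 187 CPM in the SP libraries, and all 9 had a negative log2 fold change. The 8 GABAergic interneuron markers summed to 542 CPM in SP 2 against 676 to 758 in the other libraries. The 9 oligodendrocyte markers summed to 3691 CPM in SP 2 and to 2213 to 2772 in the others. Library SP 1 stood apart in others. Its cerebellar neuron markers, 4 of 5 tested, summed to 35.0 CPM against 6.83 to 9.29 in the other libraries, and all 4 had a positive log2 fold change. Its 5 choroid plexus markers summed to 170.4 CPM against 2759.7 to 4656. The part of these differences in the results below was not tested.

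To compare levels between genes, CPM was divided by the length of each gene's merged exons in GENCODE M21. Merged exons take in every annotated transcript of a gene, so the order depends on the annotation as well as on the RNA. In the vehicle libraries the highest level per length was that of *Kcnab2*, a beta subunit of Kv1 channels, with 106 ± 0.933 CPM per kilobase (SD, n = 3 mice). It was followed by *Kcnip2* with 45.3 ± 1.00, *Kcnk1* with 34.8 ± 1.39 and *Kcnj9* with 28.9 ± 0.426 CPM per kilobase (SD, n = 3 each), and no neighbours among these 4 overlapped. *Kcnip3*, *Kcnj3*, *Kcnj4* and *Kcnd2* came next, between 24.6 and 22.5 CPM per kilobase, and each overlapped the next in the vehicle libraries. The lowest levels per length were those of *Kcnb2* with 1.65 ± 0.142, *Kcnh5* with 0.699 ± 0.0519 and *Kcna5* with 0.447 ± 0.102 CPM per kilobase (SD, n = 3 each). *Kcnb2* has 15.2 kilobases of merged exons, and its vehicle mean before division was 25.0 CPM. *Kcna3*, with 1.90 kilobases and 3.62 CPM, ranked above it per length. The genes thus differed in level far more than the groups did within a gene.

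**Figure D1:**
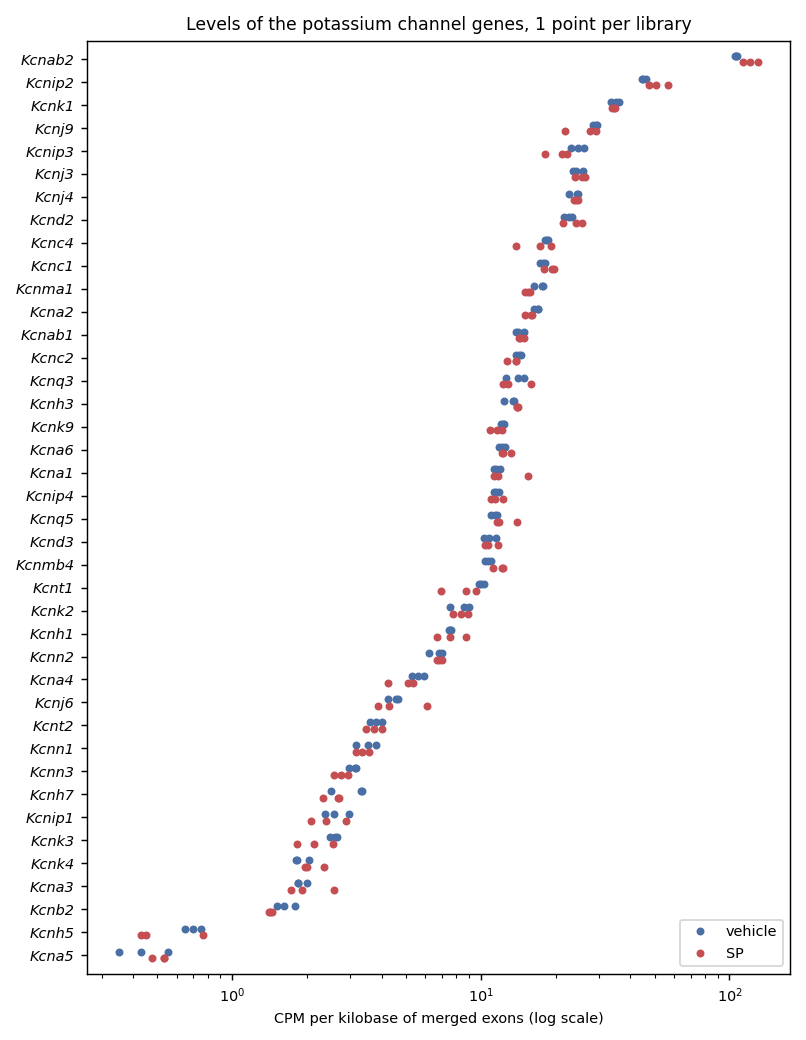
Level of each of the 40 genes in CPM per kilobase of merged exons on a log scale, with 1 point per library (blue vehicle, red SP) and genes ordered by the vehicle mean. *Kcnab2* stands at the top with 106 CPM per kilobase in the vehicle libraries and *Kcna5* at the bottom with 0.447, while within a gene the 2 groups lie close together.

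SP-injected and vehicle mice were then compared for each gene with edgeR's quasi-likelihood test and the replicate number as a block. None of the 40 members passed FDR < 0.1 and |log2FC| > 0.3, thresholds that 0.0293% of all tested genes passed (0.0176% higher and 0.0117% lower in SP). DESeq2 also called 0 members. It called 0.211% of all genes with the block (0.041% higher, 0.17% lower) and 0.779% without it (0.311% higher, 0.469% lower). In the edgeR test above, with TMM, the filter, the block and all 6 libraries, the lowest FDR of any member was 0.308. At an unadjusted p under 0.05, 6 members (15%) were lower in the SP libraries, where 5.59% of all tested genes were, or 5.89% of those at or above the lowest member's mean CPM. These 6 were *Kcnip3*, *Kcnh7*, *Kcnma1*, *Kcnt1*, *Kcnb2* and *Kcnn3*. Another 2 members (5%), *Kcnip2* and *Kcnab2*, were higher at that threshold, against 4.48% of all tested genes. In either direction it was 8 members (20%) and 10.1% of all tested genes. The libraries of the 2 groups did not overlap for 7 members that were lower with SP (17.5%) and for 5 that were higher (12.5%). Lower without overlap were 9.03% of all tested genes and 9.1% of those at or above the lowest member's mean CPM. Higher without overlap were 9.19% of all tested genes, and 18.2% did not overlap in either direction. That lowest mean was 1.38 CPM, and 14378 tested genes reached it, while 35 members had over 200 counts in each library. The shares of tested genes were thus not matched to the members in level or precision. The median log2 fold change of the 40 members was -0.0014, beside 0.0015 over all tested genes, and 20 members had a negative value (49.5% of all tested genes did).

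The differences were small, and the precision was enough to bound many of them. The SE (standard error of the log2 fold change) had a median of 0.0684 over the members and 0.0906 over all tested genes. For 21 of the 40 members the 95% interval lay wholly between -0.3 and 0.3. Of the others, 11 intervals reached below -0.3 only, 7 reached above 0.3 only, and that of *Kcna5* reached past both. Only *Kcnh5* had an estimate larger than 0.3 in size, at -0.37 with an interval from -0.93 to 0.19. Without replicate 1, 2 and 3 the value was -0.22, -0.71 and -0.20, and it was among the lowest members with 41 to 84 counts a library.

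**Figure D2:**
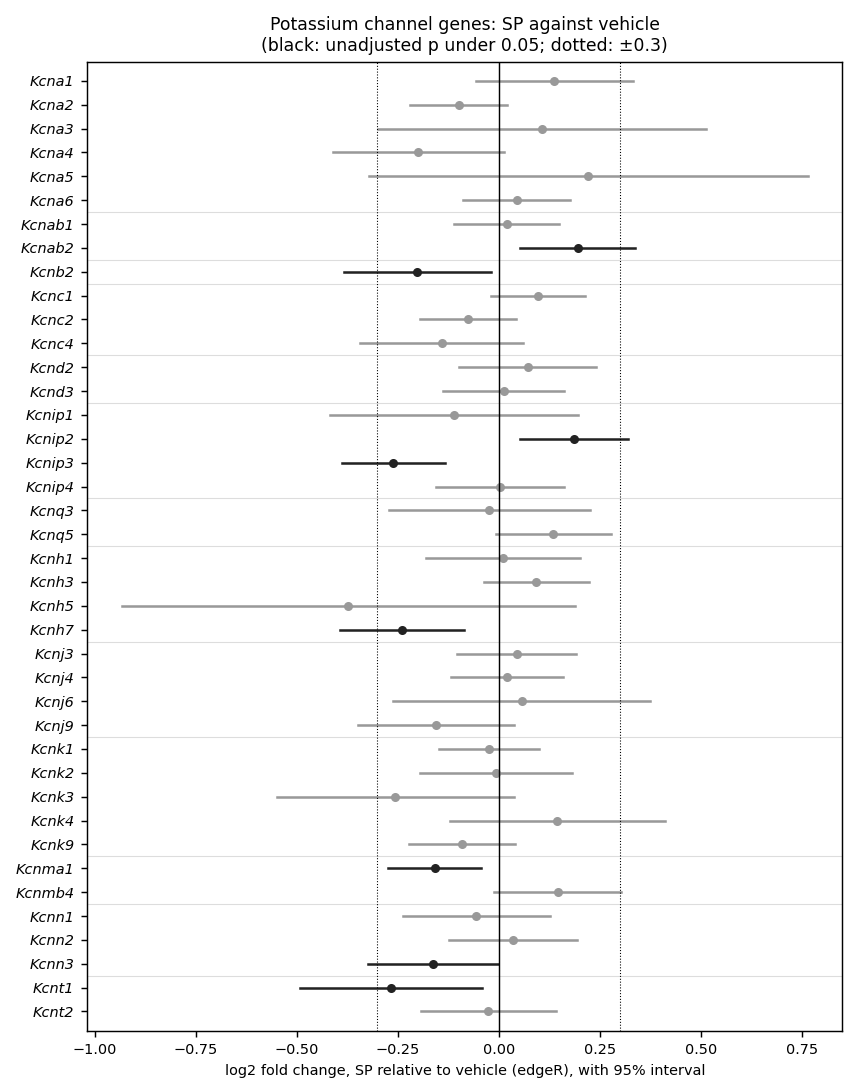
Log2 fold change of SP relative to vehicle for each of the 40 genes from edgeR with the replicate block, with its 95% interval, grouped by family (grey lines). Black marks the 8 genes with an unadjusted p under 0.05, dotted lines stand at -0.3 and 0.3, and the points of both signs are spread around 0.

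The Kv channel interacting proteins held the member with the lowest p-value in each direction. These calcium-binding proteins attach to Kv4 pore subunits, bring them to the surface and slow their inactivation. *Kcnip3* (ENSMUSG00000079056, chromosome 2 from 127456498 to 127522094, minus strand of GRCm38), whose product is also known as the transcriptional repressor DREAM, had 92.2, 81.5 and 87.7 CPM in the vehicle libraries and 78.8, 64.6 and 75.2 CPM in the SP libraries. Every SP library was below every vehicle library. Its log2 fold change was -0.26 (SE 0.0546, FDR 0.308), and -0.28, -0.22 and -0.28 without replicate 1, 2 and 3. *Kcnip2* (ENSMUSG00000025221, chromosome 19 from 45791839 to 45816061, minus strand), another Kv4 partner, had the opposite sign, with 154, 161 and 156 CPM in the vehicle and 177, 197 and 165 CPM in the SP libraries. Its groups did not overlap either, and the log2 fold change was 0.19 (SE 0.0575, FDR 0.407). Library SP 2 held the lowest *Kcnip3* and the highest *Kcnip2* value of all. *Kcnip1* ranged from 14.7 to 18.3 CPM with vehicle and from 12.9 to 17.8 CPM with SP, and *Kcnip4* from 40.9 to 43.0 and 39.8 to 44.6 CPM, so that both overlapped widely. Their log2 fold changes were -0.11 and 0.0029.

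The promoters of *Kcnip3* and *Kcnip2* are shown because these are the members with the lowest p-value in each direction and belong to 1 family, and that of *Kcnh7* because it had the lowest p-value after *Kcnip3*. Each runs 5′ to 3′ on the gene's strand from 250 bases before the RefSeq start site (GRCm38.p6), which lies within 10 bases of the GENCODE start (for *Kcnip3*, 1 of 3 windows listed), and covers 300 bases. The promoters of *Kcnma1* and *Kcnab2*, the next lower and next higher member by p-value, were left out by that limit of 10 bases. Their nearest RefSeq start sites lay 10286 and 322 bases from the GENCODE start. Capitals mark GC boxes, GGGCGG or its complement CCGCCC, which are known to bind Sp family factors.
Kcnip3 (chr2:127522045-127522344, minus strand): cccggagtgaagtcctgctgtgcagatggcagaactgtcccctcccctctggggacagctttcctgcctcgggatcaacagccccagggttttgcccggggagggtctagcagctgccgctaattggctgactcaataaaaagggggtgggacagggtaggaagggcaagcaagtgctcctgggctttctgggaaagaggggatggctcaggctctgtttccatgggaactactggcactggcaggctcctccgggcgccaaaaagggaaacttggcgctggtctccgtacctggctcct
Kcnip2 (chr19:45816014-45816313, minus strand): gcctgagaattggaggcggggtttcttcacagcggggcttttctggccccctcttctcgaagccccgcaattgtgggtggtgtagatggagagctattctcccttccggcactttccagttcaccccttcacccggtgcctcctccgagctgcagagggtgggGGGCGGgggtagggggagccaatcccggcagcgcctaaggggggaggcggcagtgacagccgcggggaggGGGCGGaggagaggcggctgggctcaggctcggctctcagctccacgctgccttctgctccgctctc
Kcnh7 (chr2:63184238-63184537, minus strand): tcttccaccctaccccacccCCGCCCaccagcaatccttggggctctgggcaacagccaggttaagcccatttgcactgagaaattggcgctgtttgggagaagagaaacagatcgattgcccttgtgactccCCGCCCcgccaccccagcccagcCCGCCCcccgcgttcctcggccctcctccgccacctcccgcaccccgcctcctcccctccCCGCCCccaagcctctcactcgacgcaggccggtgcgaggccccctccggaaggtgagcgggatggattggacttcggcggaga
The window of *Kcnip3* held 0 GC boxes, that of *Kcnip2* held 2 and that of *Kcnh7* held 4, and the 3 had GC contents of 60.3%, 67.0% and 67.7%. RefSeq windows were found for 32 of the 40 members, 50 windows in all, of which 48% held a GC box on either strand against 35.7% of 32851 windows of all genes. The motif TATAAA, also sought on both strands, was in 4% of the members' windows and 13.6% of all windows. The cAMP response element TGACGTCA was in 0 of the 50 windows and in 1.79% of all windows. Windows with a ratio of observed to expected CpG over 0.6 made up 32% and 35.8%. These matches describe the letters of the windows, and no binding was measured.

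The Kv4 pore subunits themselves carry the A-type current of dendrites, which dampens signals that travel back from the soma. *Kcnd2*, the higher of the pair per length, had 116, 112 and 119.9 CPM in the vehicle and 125, 131 and 110.4 CPM in the SP libraries, with overlap and a log2 fold change of 0.072. *Kcnd3* ranged from 99.1 to 110.2 CPM with vehicle and from 99.9 to 112 CPM with SP. Its log2 fold change of 0.012 had an interval from -0.14 to 0.16. Neither pore subunit had an unadjusted p under 0.05, and the differences between these genes were not tested.

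Kv1 subunits form low-threshold channels of axons and terminals, and Kv beta subunits bind them from inside the cell. *Kcna2*, an axonal delayed rectifier with the highest level of the family per length, had 202, 196 and 203 CPM in the vehicle and 179.6, 190.2 and 191 CPM in the SP libraries. The groups did not overlap, and the log2 fold change was -0.10 (SE 0.0514, FDR 0.561) and -0.064 without replicate 1. *Kcna4*, the inactivating member of the family, had the lowest p-value of the 6, with 27.2, 28.5 and 25.7 CPM against 20.6, 24.6 and 25.9 CPM and a log2 fold change of -0.20 (FDR 0.514). Its groups overlapped through SP 3, and the value was -0.10 without replicate 1 and -0.31 without replicate 3. *Kcna1*, which joins *Kcna2* beside the nodes of myelinated axons, had 55.0, 57.0 and 54.0 CPM and 56.0, 74.0 and 54.3 CPM. Only SP 2 was high, and the log2 fold change of 0.14 became 0.017 without replicate 2. SP 2 was also the library with the most oligodendrocyte marker RNA, while *Kcna2* had 190.2 CPM there, below every vehicle library. A relation of these genes to that RNA was not tested. *Kcna6* ranged from 70.6 to 74.6 CPM with vehicle and 72.6 to 78.9 CPM with SP, a log2 fold change of 0.044. The low *Kcna3* and *Kcna5* had 79 to 115 and 25 to 37 counts a library, and their log2 fold changes of 0.11 and 0.22 had SEs of 0.174 and 0.232. *Kcnab2* (ENSMUSG00000028931, chromosome 4 from 152390742 to 152477871, minus strand) had 590.3, 595 and 585 CPM in the vehicle libraries, within a narrow range, and 671, 729 and 630.4 CPM in the SP libraries. All SP libraries were higher, by a log2 fold change of 0.20 (SE 0.0611, FDR 0.412). The other beta subunit, *Kcnab1*, had a log2 fold change of 0.020 with an interval from -0.11 to 0.15.

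**Figure D3:**
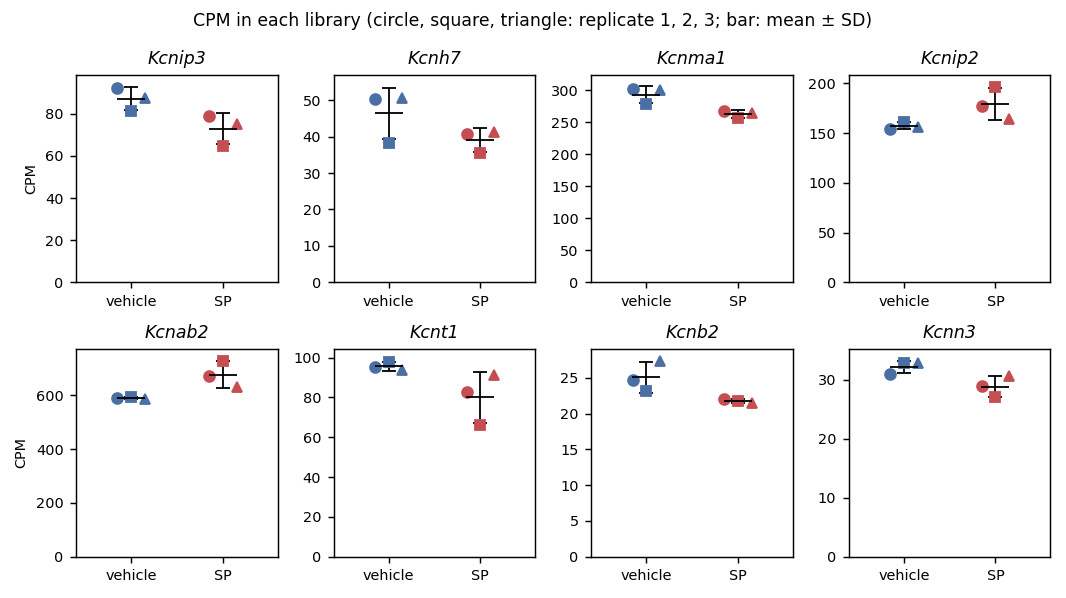
CPM of the 8 genes with an unadjusted p under 0.05 in each library (blue vehicle, red SP; circle, square and triangle for replicates 1, 2 and 3), with the mean ± SD of 3 mice in black and every axis starting at 0. In 7 of the 8 genes the groups do not overlap, *Kcnh7* being the exception, and for *Kcnt1* the library SP 2 lies far below the others.

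Among the remaining delayed rectifiers, *Kcnb2* (ENSMUSG00000092083, chromosome 1 from 15287254 to 15723750, plus strand), a Kv2 subunit, had 24.7, 23.1 and 27.4 CPM in the vehicle and 22.03, 21.7 and 21.5 CPM in the SP libraries. The SP libraries lay close together below the lowest vehicle library. The log2 fold change was -0.20 (SE 0.0779, FDR 0.458), and -0.13 without replicate 3. Kv3 subunits allow fast firing and are prominent in fast-spiking interneurons. *Kcnc1* had the lowest p-value of the 3, with 171, 169 and 164 CPM against 182, 187 and 171 CPM and a log2 fold change of 0.10 (FDR 0.556). SP 3 lay within the vehicle range. *Kcnc2* had 104, 99.4 and 102 CPM and 99.3, 91.3 and 98.7 CPM, which touched but did not overlap, and a log2 fold change of -0.077 (FDR 0.650). *Kcnc4*, the highest of the 3 per length by the vehicle mean, though its vehicle libraries overlapped those of *Kcnc1* and the SP mean of *Kcnc1* was higher, had 67.5, 66.3 and 68.2 CPM and 70.6, 50.8 and 63.3 CPM. SP 1 lay above the vehicle range and SP 2 and SP 3 below it, SP 2 farthest, and the log2 fold change of -0.14 was -0.022 without replicate 2 and -0.25 without replicate 1. The summed interneuron markers were also lowest in SP 2, while *Kcnc1* was highest there with 187 CPM. Whether the marker and channel values are related was not tested.

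Kv7 subunits form the M channels that hold neurons below threshold. *Kcnq5* had 87.6, 89.5 and 84.6 CPM in the vehicle and 89.8, 107 and 91.1 CPM in the SP libraries. The groups did not overlap, although SP 1 exceeded vehicle 2 only slightly, and the log2 fold change was 0.14 (SE 0.0609, FDR 0.511) and 0.072 without replicate 2. *Kcnq3*, the higher of both per length, had 208, 185 and 219 CPM and 189, 234 and 182 CPM. The mice of each group varied more than the groups did, and its log2 fold change of -0.023 had an interval from -0.27 to 0.23. In the family of ether-a-go-go channels, *Kcnh7* (ENSMUSG00000059742, chromosome 2 from 62693414 to 63184287, minus strand), a channel of the erg type, had 50.2, 38.2 and 50.6 CPM and 40.6, 35.4 and 41.3 CPM. The groups overlapped because vehicle 2 was low. SP was lower in 3 of 3 replicate pairs, although the deviations of mice of 1 number were nearly uncorrelated across genes (Pearson's r 0.0140, -0.0656 and 0.0734). The log2 fold change was -0.24 (SE 0.0659, FDR 0.377). In edgeR its unadjusted p was 0.00768 with the replicate block, 0.0498 without the block, and 0.0645 with the block but without replicate 1. *Kcnh3*, a forebrain channel of the elk type and the highest of the 4 per length, had 78.3, 71.2 and 77.9 CPM and 81.3, 80.6 and 80.5 CPM. The SP values were nearly equal to each other and above all vehicle values, and the log2 fold change was 0.093 (SE 0.0559, FDR 0.614). Vehicle 2 was the lowest library, and without replicate 2 the value was 0.050. *Kcnh1* had a log2 fold change of 0.011, while *Kcnh5* had 2.84, 2.63 and 3.05 CPM and 1.75, 3.11 and 1.84 CPM, with SP 2 above all vehicle libraries and the other SP libraries below them.

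The inward rectifiers *Kcnj3*, *Kcnj6* and *Kcnj9* encode channels that G protein-coupled receptors open, and *Kcnj4* encodes a strong rectifier of the classical type. None of the 4 had an unadjusted p under 0.05, and in none were the groups apart. *Kcnj9*, the highest per length and the lowest in p-value, had 125, 124 and 122 CPM in the vehicle and 124, 93.6 and 118 CPM in the SP libraries. SP 2 was far below the others, and the log2 fold change of -0.16 (FDR 0.571) was -0.029 without replicate 2. *Kcnj6* was instead highest in SP 2, with 35.7, 32.4 and 34.9 CPM and 32.8, 46.3 and 29.6 CPM and a log2 fold change of 0.057. *Kcnj3* and *Kcnj4* had log2 fold changes of 0.044 and 0.020, with intervals from -0.10 to 0.19 and from -0.12 to 0.16.

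Two-pore channels were also without a member under that threshold. *Kcnk3*, an acid-sensitive leak channel, had the lowest p-value of the 5, with 9.88, 10.3 and 10.5 CPM in the vehicle and 10.2, 7.26 and 8.49 CPM in the SP libraries. SP 1 lay within the vehicle range and the other SP libraries below it, and the log2 fold change was -0.26 (SE 0.125, FDR 0.543), -0.41 without replicate 1 and -0.13 without replicate 2. *Kcnk1*, a weak inward-rectifying leak channel and the highest of the 5 per length, had 74.6, 78.3 and 80.7 CPM and 75.3, 77.6 and 76.9 CPM. Its log2 fold change of -0.023 had the interval from -0.15 to 0.10. The other acid-sensitive channel, *Kcnk9*, had a log2 fold change of -0.091 (interval -0.22 to 0.040), and the mechanically gated *Kcnk2* had -0.0058 (interval -0.19 to 0.18). *Kcnk4* had 0.15, and its exons share 13.1% of their length with *Catsperz* on the same strand. It was the only member whose deposited values were not whole to within 0.01, in 6 of 6 libraries.

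Channels opened by calcium include the big-conductance channel, which shortens spikes, and the small-conductance channels, which produce the afterhyperpolarization and limit synaptic plasticity. *Kcnma1* (ENSMUSG00000063142, chromosome 14 from 23289431 to 24014491, minus strand), the pore of the big-conductance channel, had 301, 278 and 301 CPM in the vehicle and 268, 256 and 264 CPM in the SP libraries. Each SP library was below each vehicle library. The log2 fold change was -0.16 (SE 0.0488, FDR 0.406), with -0.15, -0.18 and -0.15 without replicate 1, 2 and 3. Its neuronal beta subunit *Kcnmb4* lay in the opposite direction, with 34.7, 36.7 and 35.7 CPM and 40.4, 37.2 and 40.9 CPM and no overlap. The log2 fold change of *Kcnmb4* was 0.15 (SE 0.0670, FDR 0.515). On the opposite strand, *Kcnmb4os1* and *Kcnmb4os2* overlap 31.5% of its merged exons, as other genes do for 39.6% of *Kcna6* and 31.1% of *Kcnj3*, and whether the counting used strand is not given in the sources used here. Of the small-conductance channels, *Kcnn3* (ENSMUSG00000000794, chromosome 3 from 89520164 to 89675132, plus strand) had 31.0, 32.9 and 32.7 CPM and 28.8, 27.0 and 30.5 CPM. Its groups did not overlap, and its log2 fold change of -0.16 (SE 0.0691, FDR 0.493) was -0.10 without replicate 2. *Kcnn2*, the highest of the 3 per length, had 46.3, 52.1 and 50.9 CPM and 52.5, 49.7 and 50.6 CPM. The groups lay on top of each other, as did those of *Kcnn1*, and the log2 fold changes were 0.035 and -0.055.

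The sodium-activated channels follow bursts of spikes. *Kcnt1* (ENSMUSG00000058740, chromosome 2 from 25863734 to 25918273, plus strand) had 95.1, 97.8 and 93.8 CPM in the vehicle and 83.0, 66.0 and 91.3 CPM in the SP libraries. The groups did not overlap, but SP 2 was much lower than SP 1 and SP 3. The log2 fold change was -0.27 (SE 0.0961, FDR 0.436), and -0.12 without replicate 2. *Kcnt2* had a log2 fold change of -0.025 with an interval from -0.19 to 0.14.

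Across the 40 members, library SP 2 was the one farthest from the median of the 6 libraries for 20 (50%), as it was for 31.8% of the 14378 tested genes at or above the lowest member's mean CPM. It held the highest value of 13 members and the lowest value of another 13, as it did for 25.8% and 21.9% of those 14378 genes. *Kcna1*, *Kcnj6*, *Kcnip2*, *Kcnab2*, *Kcnq5* and *Kcnk4* were among those highest there, and *Kcnt1*, *Kcnk3*, *Kcnip3*, *Kcnc4*, *Kcnj9*, *Kcnh7* and *Kcnip1* among those lowest. SP 3, by contrast, was farthest for 2 members (5%, beside 12.4% of those genes) and SP 1 for 8 (20%, beside 19.3%). The number of members with an unadjusted p under 0.05 was 8 lower and 3 higher without replicate 2, beside 6.1% and 5.34% of all genes tested there. The lower members were not the same ones. *Kcnip3*, *Kcnh7*, *Kcnma1* and *Kcnb2* remained, while *Kcnt1* (edgeR p 0.0890) and *Kcnn3* (0.209) dropped out. *Kcna2*, *Kcnq3*, *Kcnh5* and *Kcnj6* entered, and *Kcnj6* turned its sign, from 0.057 to -0.18.

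**Figure D4:**
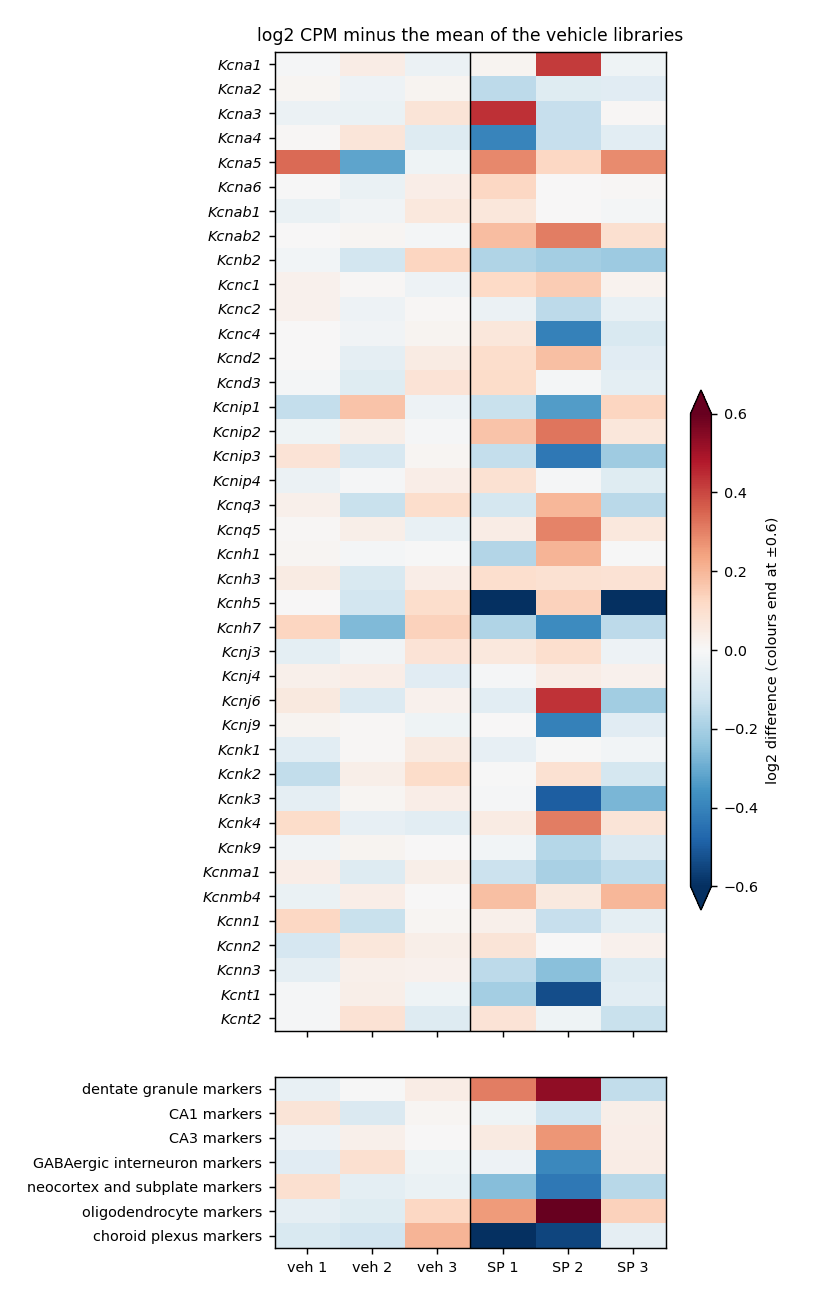
Log2 CPM of each of the 40 genes in each library minus the mean of the vehicle libraries (upper block), and the same for the summed CPM of 7 marker lists (lower block), with red above and blue below the vehicle mean and colours ending at 0.6 in size. Strong colours are most frequent in SP 2, which was farthest from the median for 20 of the 40 genes (50%). It was so for 31.8% of tested genes at or above the lowest member's mean CPM. Strong colours there include the summed dentate granule markers at 459 CPM and oligodendrocyte markers at 3691 CPM.

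Potassium channel genes outside the 40 were examined as 2 lists. Of 44 further pore subunits, 34 were expressed highly enough to be tested, 0 were called by edgeR, and at an unadjusted p under 0.05 there were 5 higher and 3 lower, where 4.48% and 5.59% of all tested genes were. Their median log2 fold change was 0.028. *Kcnj2*, a classical inward rectifier, had 12.2, 12.6 and 11.2 CPM in the vehicle and 9.25, 9.09 and 8.04 CPM in the SP libraries, without overlap. Its log2 fold change was -0.45 (SE 0.0903, FDR 0.308). *Kcng2*, a silent subunit that modifies Kv2 channels, had 16.4, 17.1 and 17.1 CPM and 21.3, 23.7 and 20.1 CPM, also without overlap. Its log2 fold change was 0.37 (SE 0.0803, FDR 0.313). The silent subunits *Kcns2* and *Kcng4* had log2 fold changes of 0.21 and 0.34, and the erg channel *Kcnh2* had -0.22 (FDR 0.424, 0.429 and 0.430). The third erg channel, *Kcnh6*, was low, with 0.988, 0.929 and 1.20 CPM and 0.895, 3.404 and 1.48 CPM. It had a log2 fold change of 0.76 (SE 0.388, FDR 0.556), the sign opposite to that of *Kcnh2* and *Kcnh7*, and 0.11 without replicate 2. *Kcnj2* and *Kcng2* passed both thresholds with DESeq2 without the block, where 0.779% of all tested genes did.

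Of 26 auxiliary and anchoring genes, 20 were tested, 0 were called, and at an unadjusted p under 0.05 there was 1 higher and 2 were lower, beside the same shares of all tested genes. The median log2 fold change was 0.0028. *Dpp10*, a transmembrane partner of Kv4 channels, had 70.5, 68.7 and 61.6 CPM in the vehicle and 47.4, 28.8 and 58.2 CPM in the SP libraries. SP 2 was lowest and all SP libraries were below the vehicle libraries. The log2 fold change was -0.62 (SE 0.186, FDR 0.4003), and -0.33 without replicate 2. The related *Dpp6* had 0.049 with an interval from -0.077 to 0.18. The gene that was higher at that p was *Cntn2*, with 127, 121 and 130 CPM and 142, 176 and 134 CPM, without overlap. Its log2 fold change was 0.25 (SE 0.0935, FDR 0.448). *Lrrc55*, lower at that p beside *Dpp10*, had a log2 fold change of -0.22 (SE 0.0898, FDR 0.486), and its groups overlapped.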

How the data were processed

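Hippocampal RNA of 3 mice labelled SP and 3 labelled vehicle was analysed. According to the methods, the authors trimmed reads with Trim Galore, aligned them to GRCm38 with STAR and quantified them with Salmon. They deposited estimated counts per gene, scaled neither for library size nor gene length. The annotation release is not given in the sources used here. Of the values, 9.77% were not whole, and counts were rounded.

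All genes were tested in R 4.3.3 with edgeR 4.0.16 (filterByExpr with a minimum count of 10 and a minimum total of 15, TMM, glmQLFit, glmQLFTest) blocking on the replicate number, since the labels call it a batch and the study's own DESeq2 analysis adjusted for replicates. Deviations from the group means in mice of 1 number had Pearson's r of 0.0140, -0.0656 and 0.0734 across genes. P-values were adjusted by Benjamini-Hochberg over the 17069 tested genes. Intervals are 95% intervals from the fitted coefficient, its standard error (the coefficient over the root of F) and the total degrees of freedom. DESeq2 1.42.0 and limma-voom (limma 3.58.1) were alternatives. The fits were checked on simulated counts, where edgeR with the block recovered 59% of 100 genes with a log2 change of 0.5 and 92% of 100 with 1, over 17069 genes of this comparison.

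The members and lists were chosen with earlier results of these data known. Members with values in every library are those with an unadjusted p under 0.05, those whose groups did not overlap, and those with the lowest p or the highest level in their family. *Kcna1*, *Kcnh5*, *Kcnh6* and *Kcnj6* beyond this, and the genes in the closing part, were named after their values were seen. With 3 mice a group, an exact permutation test of 1 gene cannot go below 0.1. Positions come from GENCODE M21 (GRCm38).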

Additional observations from a re-analysis of the deposited data

How the results depend on the processing

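No member passed FDR < 0.1 and |log2FC| > 0.3 in any of the 11 alternatives, which covered the replicate block, the filter, the normalization, DESeq2, limma-voom and leaving out both mice of a replicate number. An FDR under 0.1 alone was reached by *Kcnip3* with no filter on low counts (0.0435) and by *Kcnab2* with DESeq2 and no replicate block (0.0691), and by 0 members in edgeR with the filter and block. Of the 40 members, 27 kept the sign of their log2 fold change in all 11 alternatives. The signs turned for *Kcnip4* with no filter (-0.0034) and with at least 10 counts in every library (-0.0033). Leaving out 1 replicate number at a time, the sign turned for *Kcna3* (-0.083 to 0.21, turned without 1), *Kcnab1* (-0.023 to 0.063, turned without 1), *Kcnd2* (-0.010 to 0.16, turned without 2), *Kcnd3* (-0.042 to 0.087, turned without 1 and 2), *Kcnip1* (-0.25 to 0.087, turned without 2), *Kcnip4* (-0.057 to 0.057, turned without 1), *Kcnq3* (-0.20 to 0.10, turned without 1 and 3), *Kcnh1* (-0.094 to 0.11, turned without 2), *Kcnj4* (-0.020 to 0.049, turned without 3), *Kcnj6* (-0.18 to 0.20, turned without 2), *Kcnk2* (-0.079 to 0.10, turned without 3), *Kcnn2* (-0.037 to 0.085, turned without 1) and *Kcnt2* (-0.082 to 0.017, turned without 2), each with its range and the replicate number whose loss turned the sign. The cause was not tested. Without the replicate block, 7 members were lower and 3 higher at an unadjusted p under 0.05 (5.85% and 6.06% of all genes), and the block changed no call of a member in edgeR.

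At an unadjusted p under 0.05, 4 members were lower and 0 higher without replicate 1 (3.54% and 2.39% of all genes), 8 and 3 without replicate 2 (6.1% and 5.34%), and 4 and 3 without replicate 3 (5.68% and 4.57%). With 2 libraries against 2, which overlap less often by construction, the groups did not overlap for 14 members lower and 8 higher without replicate 1 (19% and 19.4% of all genes), 12 and 5 without replicate 2 (21.7% and 22.2%), and 9 and 10 without replicate 3 (21.7% and 20.9%). The median of the members ranged from -0.042 without replicate 1 to 0.033 without replicate 3. Of the further pore subunits, 1 to 4 were higher and 2 to 4 lower at that p, and of the auxiliary genes 0 to 2 were higher and 1 to 4 lower. With no filter on low counts, 3 further pore subunits (*Kcnj2*, *Kcng2* and *Kcnj13*) and 1 auxiliary gene (*Dpp10*) were called, a setting that called 384 of 28039 genes (1.37%, 118 higher and 266 lower), and 2 pore subunits with DESeq2 and no replicate block (0.779% of all genes). With DESeq2 and the block, 2 pore subunits were higher at an unadjusted p under 0.05 (1.82% of all genes). The auxiliary genes lower at that p were 0 with DESeq2, with or without the block (2.31% and 4.1% of all genes), and 1 with limma-voom (5.4%). The depth limits the members with few counts, *Kcna3*, *Kcna5* and *Kcnh5*.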

Other observations

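A pair of potassium channel genes of the choroid plexus were lowest in the library with the least RNA of that tissue's markers. *Kcnj13*, an inward rectifier of this epithelium, had 40.3, 26.3 and 39.8 CPM in the vehicle and 2.17, 17.3 and 25.5 CPM in the SP libraries, and *Kcne2*, a small auxiliary subunit, had 29.0, 20.3 and 28.3 CPM and 1.28, 18.6 and 22.8 CPM. That library was SP 1, where the 5 choroid plexus markers summed to 170.4 CPM, while they summed to 3742 to 4656 CPM in the vehicle libraries, 2759.7 in SP 2 and 3900.3 in SP 3. Their log2 fold changes were -1.45 (FDR 0.453 from edgeR) and -1.13 (FDR 0.589), and -0.62 and -0.22 without replicate 1. The part of the choroid plexus content in these values was not tested.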
